A study of Mus musculus with 8 samples.

Results

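The genes described here make cholesterol and fatty acids, and their RNA was measured in whole pancreas from 8 mice aged 6 weeks. They are 38 genes chosen by name for their place in sterol and fatty acid synthesis, and all 38 are among the 11789 genes of the deposited table. The labels give 4 mice of the genotype Daxxfl/flPdx1-CreTg, called Daxx-deleted here, and 4 wild-type mice, with 1 total RNA library per mouse and no strain given. Both genotypes held 2 mice of each sex. In the Daxx-deleted mice both Daxx alleles are floxed, and Cre is driven by the promoter of Pdx1, a gene switched on in the embryonic epithelium that forms the exocrine and endocrine pancreas, so that vessels, stroma, immune cells and fat are not its target. Daxx is a histone chaperone that works with Atrx at silent chromatin. No group carries only the transgene or only the floxed alleles, so effects of Daxx loss, transgene and floxed alleles cannot be told apart. The series asks how basal expression differs after deletion of Daxx in the pancreas.

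Cells make cholesterol from acetyl-CoA through mevalonate and squalene, and fatty acids from acetyl-CoA through malonyl-CoA. Both routes are switched on by SREBP transcription factors, which stay in the endoplasmic reticulum while sterol is plentiful and move to the Golgi, escorted by Scap, for cleavage when it is short. Fat cells and liver make most of the fatty acid of the body, and acinar cells of the pancreas use lipid for the extensive membranes of their secretory pathway.

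Libraries held 7705789 to 10517508 reads at the listed genes. Acinar markers were present in full, with 12 of 12 listed, and Ctrb1, a chymotrypsinogen gene, averaged 961849 normalized counts over the 8 libraries. Daxx had 26.8, 23.3, 29.2 and 32.5 in Daxx-deleted replicates 1 to 4, against 39.7, 58.7, 46.7 and 45.2 in wild-type replicates 1 to 4. Every Daxx-deleted library was below every wild-type library (log2 fold change -0.74 ± 0.20 (SE), exact two-sided permutation p = 0.0286, limma adjusted p = 0.9997). The mean in Daxx-deleted pancreas was 0.59 times that in wild-type pancreas, so Daxx RNA was lower in this tissue but not absent. Values below are the deposited normalized counts, which are reads divided by 1 size factor per library. Errors are SD over 4 libraries per genotype unless given as SE. A fold change is the difference of mean log2(normalized count + 1), Daxx-deleted minus wild type. In whole tissue, fewer cells of a type and less RNA per cell cannot be told apart.

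No gene of cholesterol or fatty acid synthesis differed between the genotypes at an adjusted p under 0.05. Of the 38 genes 36 had a mean of at least 10 normalized counts and were tested, and limma called 0 of them, where it called 0 of all 10468 tested genes (0.00%). The smallest adjusted p among the 36 was 0.9997. At an unadjusted p under 0.05 limma had 1 of the 36, Scd2, higher in Daxx-deleted pancreas, and none lower, against 1.32% and 1.57% of all tested genes. edgeR's quasi-likelihood test and DESeq2, both on the recovered reads, also called 0 of the 36 and had 1 each at an unadjusted p under 0.05. Over all tested genes edgeR called 0 and DESeq2 called 1. Of all 38 genes only Fdps, which fell below the test's minimum, had no overlap between the genotypes, with the Daxx-deleted libraries above. Over all listed genes 0.925% did so in this direction and 1.93% in either.

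The 16 tested genes of cholesterol synthesis had a median log2 fold change of 0.06, with 10 above 0, and the 14 of fatty acid synthesis had a median of 0.15, with 13 above 0. All tested genes had a median of -0.0074, with 48.1% above 0. Without Daxx-deleted replicate 2 the fatty acid genes had a median of -0.0045 and 7 of 14 above 0, and the cholesterol genes had 0.034 and 9 of 16. Wild-type libraries moved these medians too. The fatty acid median was 0.28 without wild-type replicate 1 (13 of 14 above 0), 0.088 without wild-type replicate 3 (10 of 14) and 0.071 without wild-type replicate 4 (11 of 14). The cholesterol median was 0.0087 without wild-type replicate 3 (8 of 16) and 0.037 without wild-type replicate 4 (9 of 16). The 95% interval of the median gene among the 36 reached 0.43 log2 units to each side. For 17 of the 36 the whole interval lay inside a 1.5-fold change, and for 32 inside a 2-fold change, against 56.1% and 88.3% of all tested genes. The 4 whose intervals went beyond 2-fold were Me1, Thrsp, Scd1 and Elovl6.

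**Figure D1:**
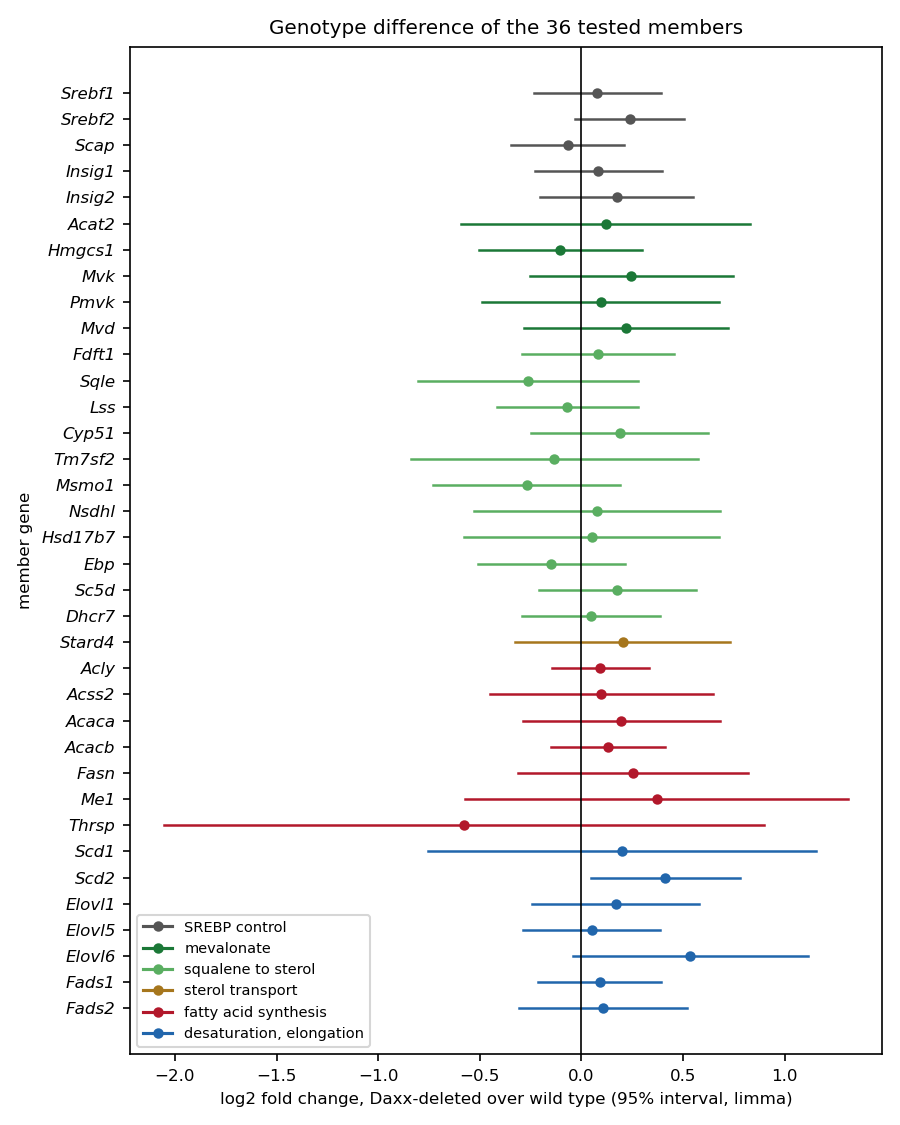
Log2 fold change of each of the 36 tested genes, Daxx-deleted over wild type (horizontal axis), with its 95% interval from limma. Genes run down the page by role, and colours mark the roles. Every interval but that of Scd2 includes 0, the interval of Acly is among the narrow ones, and that of Thrsp is the widest.

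Many of these genes have a CCAAT sequence just upstream of where transcription starts, the element bound by NF-Y, a factor known to work beside SREBP. RefSeq promoter windows were at hand for 31 of the 38 (not for Fads1, Fdft1, Fdps, Scd1, Scd2, Sqle and Stard4). In the 250 bases before the start, 25 of these 31 held CCAAT on either strand, where 37.5% of 27025 genes and 40.4% of the 8285 tested genes with a window did. In the cholesterol route 14 of 15 held it, and in the fatty acid route 7 of 11. The GC-box sequence GGGCGG was found in 24 of 31, against 66.3% of tested genes with a window, and the E-box CACGTG in 6 of 31, against 10.5%. TCACCCCAC, the only sterol element sequence searched for, was found in 1 of 31, Hmgcs1, against 0.676%. Variants of it were not searched, so the count is of this exact sequence. These are matches of letters in either direction and not sites of binding. A gene was counted if any of its windows matched, with 41 windows over the 31 genes and 32851 over the 27025. The 3 stretches below are those of Hmgcs1, an early step of the cholesterol route that held both CCAAT and TCACCCCAC, and of Fasn and Thrsp, which varied widely between animals (RefSeq, GRCm38.p6, 5′ to 3′ on the strand of the gene). Capitals mark CCAAT, its reverse ATTGG, and TCACCCCAC. In Fasn a CCAAT and an ATTGG overlap.
Hmgcs1, chr13:119690101-119690350, plus strand: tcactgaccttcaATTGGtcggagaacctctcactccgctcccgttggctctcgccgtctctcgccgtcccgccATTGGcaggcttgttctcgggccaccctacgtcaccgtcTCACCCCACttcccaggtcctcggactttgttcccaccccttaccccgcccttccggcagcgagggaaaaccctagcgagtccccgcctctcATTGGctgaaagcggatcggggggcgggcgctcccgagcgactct
Fasn, chr11:120824548-120824797, minus strand: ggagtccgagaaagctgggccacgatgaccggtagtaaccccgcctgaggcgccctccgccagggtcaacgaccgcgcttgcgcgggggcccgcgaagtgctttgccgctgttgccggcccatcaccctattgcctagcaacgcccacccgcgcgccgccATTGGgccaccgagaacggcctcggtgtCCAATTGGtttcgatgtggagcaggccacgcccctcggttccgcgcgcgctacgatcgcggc
Thrsp, chr7:97417551-97417800, minus strand: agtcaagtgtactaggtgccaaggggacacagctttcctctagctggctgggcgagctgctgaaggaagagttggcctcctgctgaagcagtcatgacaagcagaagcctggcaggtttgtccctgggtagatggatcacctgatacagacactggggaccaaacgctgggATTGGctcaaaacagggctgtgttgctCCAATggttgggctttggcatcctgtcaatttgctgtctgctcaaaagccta
In Hmgcs1 the CCAAT matches began 237, 176 and 45 bases before the start and TCACCCCAC began 137 bases before it. In Fasn they began 90, 62 and 59 bases before the start, and in Thrsp 79 and 52. The end of each window, past the start, was looked up in the GENCODE M21 transcripts of its gene. It was found for 37 of 41 windows of the members, with Fasn and Thrsp among them, but not for the Hmgcs1 window. The Hmgcs1 distances thus count from the RefSeq start alone.

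None of the 5 SREBP control genes was called, and 4 had a fold change above 0. Srebf2, the SREBP gene that mainly drives cholesterol synthesis, had 191, 177, 221 and 189 in Daxx-deleted replicates 1 to 4, against 159, 164, 183 and 152 in wild-type replicates 1 to 4. The groups overlapped in the lowest Daxx-deleted and the highest wild-type library alone, and the difference did not pass (log2 fold change 0.24 ± 0.13 (SE), exact permutation p = 0.0571). Srebf1, whose products drive fatty acid synthesis and cholesterol synthesis, had 331 ± 38.4 in Daxx-deleted and 317 ± 67.1 in wild-type pancreas, and its highest value was in wild-type replicate 2. Scap, the escort protein gene and the control gene with the highest mean count, had 373, 404, 484 and 501 in Daxx-deleted replicates 1 to 4, against 399, 524, 495 and 425 in wild-type replicates 1 to 4. No genotype stood apart in it (log2 fold change -0.07 ± 0.13). Insig1 and Insig2 encode the proteins that hold Scap and SREBP in the endoplasmic reticulum when sterol is plentiful, and Insig1 is itself an SREBP target. Insig1 had 445 ± 87.9 in Daxx-deleted and 417 ± 53.8 in wild-type pancreas. Insig2 had 75.4, 91.6, 55.2 and 75.6 in Daxx-deleted replicates 1 to 4, against 74.02, 62.6, 65.2 and 58.4 in wild-type replicates 1 to 4, with the ranges overlapping and a log2 fold change of 0.17 ± 0.18. Per kilobase of exon, Insig1 was 6.18 to 7.002 times Insig2 in Daxx-deleted and 6.06 to 8.09 times in wild-type libraries.

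None of the 5 tested mevalonate genes was called, and 4 had a fold change above 0. Hmgcs1, the HMG-CoA synthase gene, had 128, 137, 71.9 and 89.2 in Daxx-deleted replicates 1 to 4, against 108, 113, 105 and 117 in wild-type replicates 1 to 4. Both the highest and the lowest value were in Daxx-deleted libraries, and the wild-type libraries lay close together (log2 fold change -0.10 ± 0.19, exact permutation p = 0.629). Mvk, mevalonate kinase, had 30.97, 33.3, 44.8 and 31.5 in Daxx-deleted replicates 1 to 4, against 29.96, 37.8, 31.2 and 20.4 in wild-type replicates 1 to 4, a difference inside the spread of each group (log2 fold change 0.25 ± 0.23). Mvd, the decarboxylase that yields isopentenyl diphosphate, had 47.5, 34.2, 24.99 and 38.8 in Daxx-deleted replicates 1 to 4, against 34.4, 24.8, 36.03 and 27.4 in wild-type replicates 1 to 4. Its groups also overlapped (log2 fold change 0.22 ± 0.24). Acat2 here is the cytosolic acetyl-CoA thiolase, which has a near copy, Acat3, beside it on chromosome 17, so its count is uncertain where reads match both. It had 15.7 ± 5.79 in Daxx-deleted and 13.9 ± 3.12 in wild-type pancreas, and Pmvk, phosphomevalonate kinase, had 20.2 ± 5.67 in Daxx-deleted and 18.4 ± 1.69 in wild-type pancreas.

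Idi1 and Fdps, the next enzymes of this branch, were below the minimum mean and were not in the test. Fdps, which makes farnesyl diphosphate, had 12.4, 8.33, 6.25 and 8.40 in Daxx-deleted replicates 1 to 4, against 5.29, 3.91, 4.87 and 1.77 in wild-type replicates 1 to 4. These are 6 to 12 reads per Daxx-deleted library and 2 to 6 per wild-type library. All 4 Daxx-deleted values were above all 4 wild-type values (exact permutation p = 0.0286, the smallest it can give). In the fit with no minimum, limma gave Fdps a log2 fold change of 1.02 ± 0.45 (SE) with an adjusted p not under 0.05. Idi1, the isopentenyl diphosphate isomerase gene, had 12.4, 14.2, 7.29 and 7.35 in Daxx-deleted replicates 1 to 4, against 9.69, 3.91, 5.84 and 8.85 in wild-type replicates 1 to 4, and the groups overlapped (exact permutation p = 0.200).

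From squalene to cholesterol, 6 of 11 genes had a fold change above 0 and 5 below, with a median of 0.05, and all were tested. Sqle, squalene epoxidase, a rate-limiting enzyme of this stretch, had 75.4, 124, 67.7 and 81.9 in Daxx-deleted replicates 1 to 4, against 79.3, 136, 66.2 and 151 in wild-type replicates 1 to 4. The 3 highest values were in wild-type replicates 4 and 2 and Daxx-deleted replicate 2 (log2 fold change -0.26 ± 0.25, exact permutation p = 0.457). Msmo1, a methylsterol oxidase that acts after lanosterol, had 33.03, 49.1, 35.4 and 29.4 in Daxx-deleted replicates 1 to 4, against 46.7, 40.4, 35.1 and 54.9 in wild-type replicates 1 to 4, with overlapping ranges (log2 fold change -0.27 ± 0.22). Lss, lanosterol synthase with the highest mean count of the 11, had 119, 80.8, 105 and 135 in Daxx-deleted replicates 1 to 4, against 111, 108, 127 and 109 in wild-type replicates 1 to 4. Its Daxx-deleted libraries spread on both sides of the wild-type ones. The first step, squalene synthase Fdft1, had 93.4 ± 23.5 in Daxx-deleted and 86.7 ± 9.36 in wild-type pancreas. Cyp51, the lanosterol demethylase, had 47.2 ± 6.84 in Daxx-deleted and 41.8 ± 9.27 in wild-type pancreas. Of the later enzymes, the desaturase Sc5d had 102 ± 19.7 in Daxx-deleted and 90.4 ± 16.8 in wild-type pancreas, the isomerase Ebp had 58.7 ± 7.71 in Daxx-deleted and 65.1 ± 8.27 in wild-type pancreas, and the reductase Dhcr7, which makes cholesterol itself, had 77.3 ± 7.53 in Daxx-deleted and 75.2 ± 10.9 in wild-type pancreas. Tm7sf2, Nsdhl and Hsd17b7, a sterol reductase, a sterol dehydrogenase and a ketosterol reductase, had the lowest mean counts of the 11. Tm7sf2 had 15.9 ± 6.95 in Daxx-deleted and 16.3 ± 1.11 in wild-type pancreas, Nsdhl had 20.1 ± 6.04 in Daxx-deleted and 18.7 ± 3.37 in wild-type pancreas, and Hsd17b7 ranged from 15.8 to 23.1 in Daxx-deleted and from 10.7 to 21.1 in wild-type libraries. Stard4, a carrier that moves sterol between membranes, had 34.1, 51.6, 29.2 and 27.3 in Daxx-deleted replicates 1 to 4, against 37.01, 23.5, 35.1 and 25.7 in wild-type replicates 1 to 4. Its highest value was in Daxx-deleted replicate 2, and the other 7 ranged from 23.5 to 37.01 (log2 fold change 0.20 ± 0.25).

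The widest spread from animal to animal was in genes of the fatty acid route. Fasn, fatty acid synthase, had 1054, 2164, 808 and 828 in Daxx-deleted replicates 1 to 4, against 1231, 1139, 848 and 636 in wild-type replicates 1 to 4. Daxx-deleted replicate 2 was at 2.55 times the median of the other 7 libraries, and the remaining libraries of both genotypes overlapped (log2 fold change 0.25 ± 0.27, exact permutation p = 0.629). Without that replicate the log2 fold change was -0.067. Thrsp, a protein that promotes lipid synthesis in fat and liver, had 21.7, 79.97, 4.17 and 6.30 in Daxx-deleted replicates 1 to 4, against 51.1, 35.2, 11.7 and 13.3 in wild-type replicates 1 to 4, a range of 19.2-fold over 4 to 96 reads. Its means were 28.03 ± 35.5 in Daxx-deleted and 27.8 ± 18.9 in wild-type pancreas, almost equal, while the log2 fold change was -0.58 ± 0.69. Both genotypes thus held high and low animals. Scd1, the stearoyl-CoA desaturase of fat and liver, had 284, 836, 187 and 151 in Daxx-deleted replicates 1 to 4, against 493, 335, 155 and 151 in wild-type replicates 1 to 4, again with Daxx-deleted replicate 2 and wild-type replicate 1 highest (log2 fold change 0.20 ± 0.45). Me1, malic enzyme, which supplies NADPH, had 18.6, 34.99, 13.5 and 7.35 in Daxx-deleted replicates 1 to 4, against 23.8, 9.13, 8.76 and 11.5 in wild-type replicates 1 to 4, with the same 2 libraries highest. The SD of log2 values within genotype was 1.45 for Thrsp, 0.98 for Scd1, 0.76 for Me1 and 0.56 for Fasn, against a median of 0.27 over all tested genes. These 4 were the only ones of the 36 above 0.5, as were 12.1% of all tested genes.

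**Figure D2:**
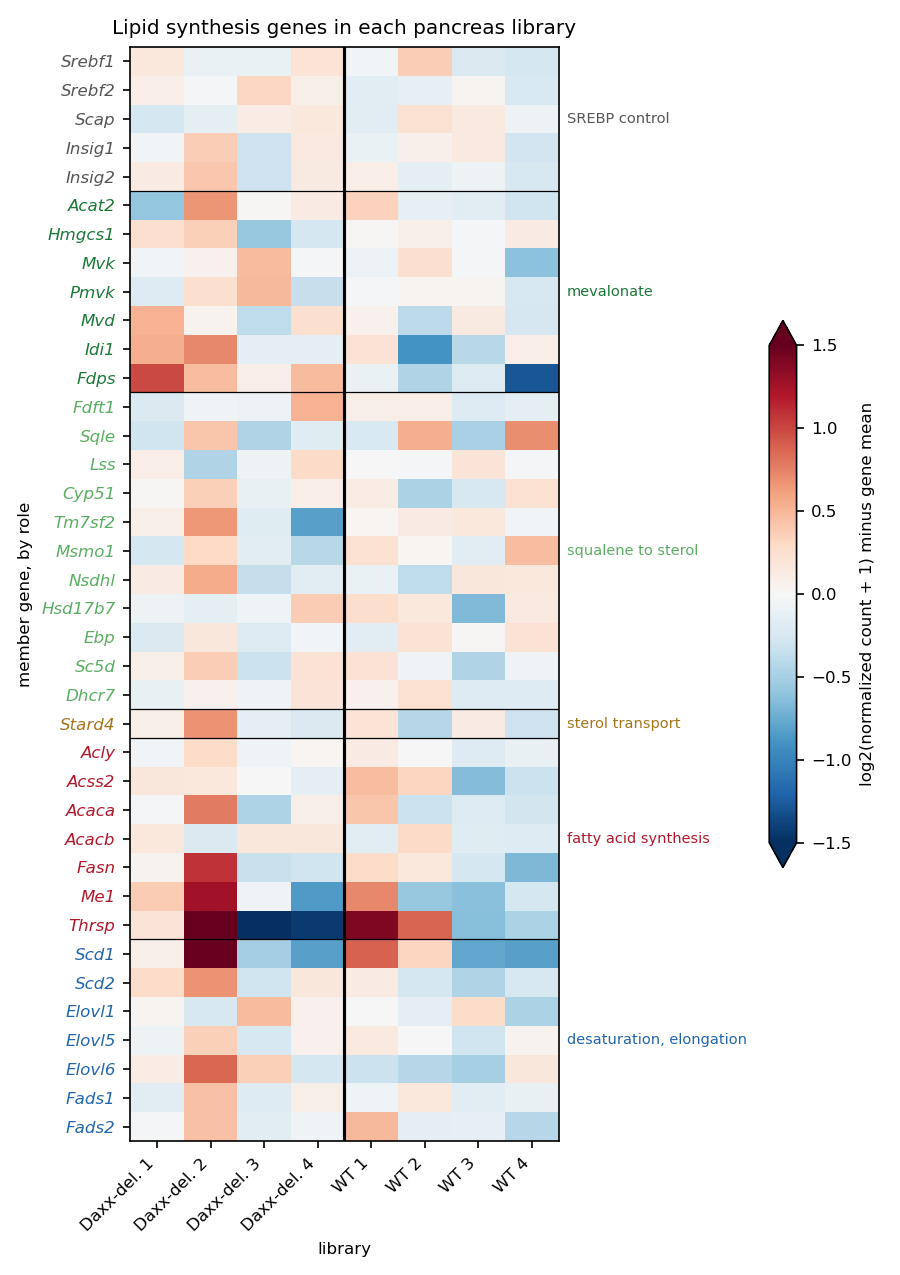
Each cell gives log2(normalized count + 1) of a gene in a library minus the mean of that gene over the 8 libraries, with the 4 Daxx-deleted libraries left of the 4 wild-type ones and genes down the page by role. Thrsp, Scd1, Me1 and Fasn have colours among the strongest, red in Daxx-deleted replicate 2 and, apart from a pale Fasn, in wild-type replicate 1. Colours are cut at 1.5 log2 units to each side.

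Daxx-deleted replicate 2 held the highest value of 20 of the 38 genes, 7 of 18 in the cholesterol route and 10 of 14 in the fatty acid route. Among all tested genes it held the highest value of 11.5%. The other 7 libraries held the highest value of 0 to 5 of the 38 each. Fat cell markers moved with this. Of 17 adipocyte markers 11 were listed, and 10 of these 11 had their highest value in Daxx-deleted replicate 2. Their summed level was 510.0, 1226, 399.9 and 269.8 in Daxx-deleted replicates 1 to 4, against 808, 467, 357 and 447 in wild-type replicates 1 to 4, so that Daxx-deleted replicate 2 and wild-type replicate 1 were the 2 highest. Adipoq, the adiponectin gene and a defining marker, had 19.6, 77.5, 11.5 and 0 in Daxx-deleted replicates 1 to 4, against 30.8, 19.6, 3.90 and 10.6 in wild-type replicates 1 to 4. Markers of macrophages (6 of 10) and of lymphocytes (3 of the 3 listed, out of 11) were also highest in Daxx-deleted replicate 2. So were 4 of 10 markers of fibroblasts and stellate cells, though the sum of that list was highest in Daxx-deleted replicate 3. The part of these cells in the levels of the synthesis genes was not tested.

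Daxx-deleted replicate 4 had the lowest value of 7 of the 11 listed adipocyte markers, with 0 reads of Adipoq and Cidec and 1 of Plin1. Cfd at 4.20 normalized counts, Car3 at 9.45 and Plin4 at 9.45 also had their lowest values there. The remaining listed markers were not near 0 in this library. Fabp4 had 58.8 normalized counts, Acvr1c 86.1, Cd36 52.5, Lipe 36.7 and Pparg 11.5. Lep and Retn were not among the listed genes. The same library had 789 reads of Fasn, 750 of Acly, 144 of Scd1 and 6 of Thrsp. With the mean log2 level of the adipocyte markers as a covariate in limma, the residual SD of log2 values fell for Me1 to 0.26, against 0.76 with genotype alone. For Scd1 it was 0.50 against 0.98, for Fasn 0.37 against 0.56, and for Thrsp 0.92 against 1.45. These 4 genes were named for their wide spread and were highest in the same library as most of the markers. Their lower residual SD is thus a description, and a cause was not tested. Among cholesterol genes the residual SD was 0.23 against 0.44 for Tm7sf2 and 0.13 against 0.23 for Lss. Tm7sf2 was highest in Daxx-deleted replicate 2 (25.0) and lowest in Daxx-deleted replicate 4 (8.40), as was the summed adipocyte level. Lss ran the other way, lowest in Daxx-deleted replicate 2 (80.8) and highest in Daxx-deleted replicate 4 (135). The ratio of the 2 residual SDs was under 0.6 for 4 of the 36, which were Lss, Tm7sf2, Me1 and Scd1, and for 2.80% of all tested genes. The median ratio of the 2 residual SDs over all tested genes was 1.03. In that fit, too, none of the 36 genes was called. The log2 fold changes were 0.30 ± 0.18 (SE) for Fasn and 0.29 ± 0.24 for Scd1.

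Levels of the Y-linked genes Ddx3y, Eif2s3y, Kdm5d and Uty ran opposite to those of Fasn, Scd1, Thrsp and Acss2. Each genotype had 2 mice of each sex, and the labels do not say which library is which. Daxx-deleted replicates 1 and 2 and wild-type replicates 1 and 2 had 0 or 1 read at each of the 4 genes, and the other 4 libraries had 17 to 150. Libraries with and without Y-linked reads thus numbered 2 each per genotype, the stated number of mice of each sex. Fasn, Scd1, Thrsp and Acss2 were each higher in every library without these reads than in every library with them, 4 of the 36 tested genes, and none was lower throughout. Of all tested genes 1.28% were higher in that way. Scd1, for instance, stood at 284 or above in the first 4 libraries and at 187 or below in the others. The summed adipocyte level split the same libraries, with 467 or above and 447 or below, so the 2 cannot be told apart here. A fit with the Y-linked level as a term called 0 of the 36. Its residual SD was 0.83 for Thrsp, 0.56 for Scd1, 0.38 for Fasn and 0.22 for Acss2, against 0.39 for Acss2 with genotype alone. These 4 genes were named for this split of the libraries, so a lower residual SD was built in and is no further support. The ratio of the residual SD with this term to that with genotype alone was under 0.6 for Acss2, Thrsp and Scd1, 3 of the 36. It was under 0.6 for 1.83% of all tested genes.

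**Figure D3:**
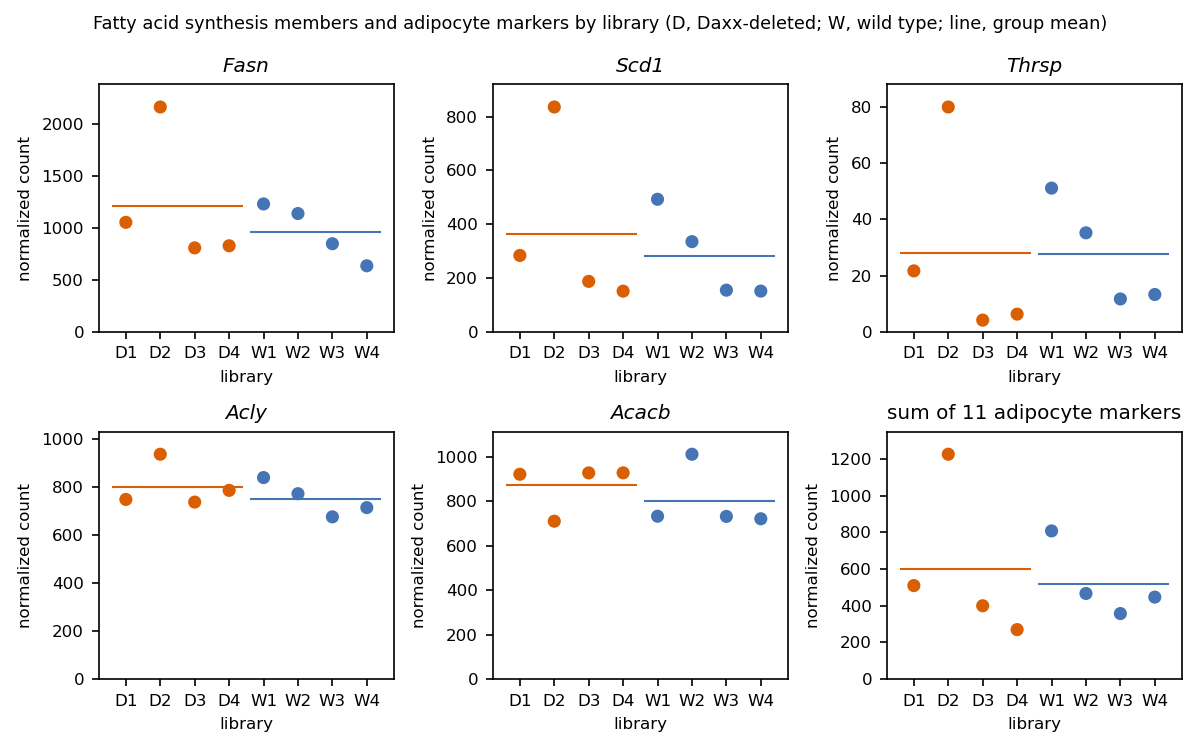
Normalized counts (vertical axes, from 0) of 5 genes and of the summed adipocyte markers in each of the 8 libraries, Daxx-deleted (D) left of wild type (W), with a line at each group mean. Fasn, Scd1 and Thrsp share their highest library, D2, with the adipocyte sum, while Acacb is lowest there.

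Acly, ATP citrate lyase, which supplies cytosolic acetyl-CoA, had 749, 938, 738 and 787 in Daxx-deleted replicates 1 to 4, against 841, 773, 677 and 715 in wild-type replicates 1 to 4. Daxx-deleted replicate 2 and wild-type replicate 1 were highest here too, but the libraries ranged only 1.39-fold, and its 95% interval of -0.15 to 0.33 on the log2 scale allowed a rise of at most 1.26-fold. The carboxylases that make malonyl-CoA differed in pattern. Acaca, the cytosolic form used for synthesis, had 161 ± 60.5 in Daxx-deleted and 136 ± 36.3 in wild-type pancreas and was highest in Daxx-deleted replicate 2 at 246. Acacb, the form at mitochondria whose product restrains fatty acid oxidation, had 921, 709.7, 927 and 927 in Daxx-deleted replicates 1 to 4, against 732, 1011, 731 and 721 in wild-type replicates 1 to 4. It was lowest in Daxx-deleted replicate 2, and the groups overlapped (log2 fold change 0.13 ± 0.13). Per kilobase of exon, Acacb was 5.12 to 15.9 times Acaca in Daxx-deleted and 6.82 to 15.8 times in wild-type libraries. Acss2, which makes acetyl-CoA from acetate, had 32.4 ± 3.25 in Daxx-deleted and 31.6 ± 11.3 in wild-type pancreas.

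The 7 desaturases and elongases had fold changes above 0, and none was called. Without Daxx-deleted replicate 2, Scd1, Elovl5, Fads1 and Fads2 were below 0. Scd2, the desaturase isoform with the highest level of all 38 genes per length, had 1274, 1689, 859 and 1183 in Daxx-deleted replicates 1 to 4, against 1147, 879, 772 and 894 in wild-type replicates 1 to 4. Its log2 fold change was 0.41 ± 0.17 (SE), with an unadjusted limma p of 0.0301 and an exact permutation p of 0.143. The groups overlapped, since 3 wild-type libraries were above the lowest Daxx-deleted library. Without Daxx-deleted replicate 2 the log2 fold change was 0.25. Elovl6, which lengthens palmitate to stearate, had 28.9, 49.1, 34.4 and 22.05 in Daxx-deleted replicates 1 to 4, against 21.1, 19.6, 18.5 and 30.1 in wild-type replicates 1 to 4. Daxx-deleted replicate 2 was again the highest, and the ranges overlapped (log2 fold change 0.54 ± 0.27, exact permutation p = 0.0857). Scd1 and Scd2 are neighbouring, similar genes on chromosome 19, and the sources do not say how reads shared between them were counted. Per kilobase, Scd2 was 1.81 to 7.01 times Scd1 in Daxx-deleted and 2.09 to 5.29 times in wild-type libraries, with the lowest ratio in Daxx-deleted replicate 2. Fads1 and Fads2, which desaturate polyunsaturated fatty acids, had 387 ± 82.4 in Daxx-deleted and 359 ± 35.6 in wild-type pancreas and 106 ± 21.1 in Daxx-deleted and 100.2 ± 28.9 in wild-type pancreas. Elovl5, an elongase of polyunsaturated chains, had 126 ± 22.9 in Daxx-deleted and 121 ± 15.5 in wild-type pancreas, and Elovl1, an elongase of very long saturated chains, had 86.8 ± 18.5 in Daxx-deleted and 77.3 ± 16.6 in wild-type pancreas.

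Per kilobase of exon, with all annotated exons of a gene counted, the genes spanned 131-fold. Scd2 had the highest mean over the 8 libraries, 199 normalized counts per kilobase, followed by Acly at 147, Insig1 at 139, Fasn at 99.4, Acacb at 86.7, Fads1 at 77.6, Scd1 at 66.2, Scap at 60.5 and Srebf1 at 57.6. Fdps at 1.52 and Idi1 at 2.48 were the lowest. No cholesterol synthesis enzyme was above Ebp at 26.8. Of 37 neighbouring pairs in this order 36 had overlapping ranges over the libraries, and only between Srebf1 and Elovl5 did the ranges stay apart.

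**Figure D4:**
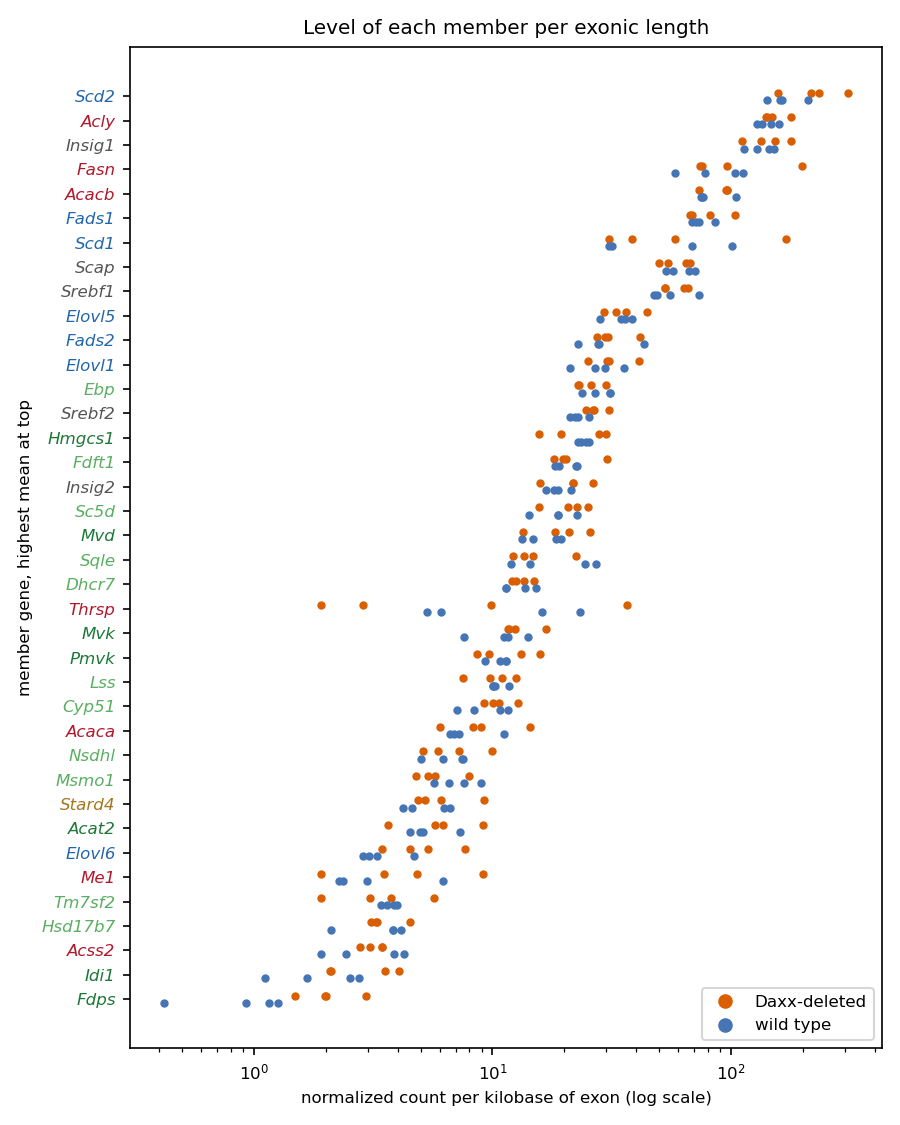
Normalized count per kilobase of exon (horizontal, log scale) of each of the 38 genes in every library, with Daxx-deleted points drawn just above wild-type points and genes ordered by their mean. Scd2 is at the top and Fdps at the bottom, and Scd1 and Thrsp have the widest scatter in both genotypes.

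Further genes of the same pathways were not called either. Of 30 genes of sterol transport, uptake, export and remaining synthesis, 27 were listed and tested, and 0 passed in either direction. Their median log2 fold change was 0.0025, with 14 above 0 and 13 below. Among those with the highest means were Lrp1, a lipoprotein receptor, at 668 ± 116 in Daxx-deleted and 663 ± 96.1 in wild-type pancreas, Osbp, an oxysterol-binding lipid carrier, at 493 ± 66.5 in Daxx-deleted and 490.5 ± 50.9 in wild-type pancreas, and Mbtps1, the protease that makes the first cut in SREBP, at 424 ± 45.7 in Daxx-deleted and 425 ± 50.9 in wild-type pancreas. At an unadjusted p under 0.05, limma had 3 of the 27 higher and none lower, against 1.32% and 1.57% of all tested genes, and these were chosen after their values were seen. Mylip, a ubiquitin ligase for lipoprotein receptors, had 35.1, 41.7, 40.6 and 52.5 in Daxx-deleted replicates 1 to 4, against 24.7, 26.1, 24.3 and 26.6 in wild-type replicates 1 to 4. All Daxx-deleted values were above all wild-type values (exact permutation p = 0.0286, limma adjusted p = 0.9997). Nr1h3, the liver X receptor alpha gene, had 70.2, 70.8, 72.9 and 66.1 in Daxx-deleted replicates 1 to 4, against 45.8, 57.4, 64.3 and 47.8 in wild-type replicates 1 to 4, also without overlap (exact permutation p = 0.0286). These were 2 of the 27, against 0.925% of all listed genes higher without overlap. Soat1, which esterifies cholesterol for storage, had 143 ± 35.7 in Daxx-deleted and 95.7 ± 11.4 in wild-type pancreas, with overlapping groups (exact permutation p = 0.0857). Since these were picked for a small p, their separation is no further support.

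Of 39 further genes of fatty acid activation, elongation and glycerolipid synthesis, 35 were listed and 33 tested, and 0 passed. Their median log2 fold change was 0.03, with 19 above 0 and 14 below. The 4 with the highest means were Chka, choline kinase, at 450.2 ± 52.1 in Daxx-deleted and 453 ± 23.9 in wild-type pancreas, Pdha1, a pyruvate dehydrogenase subunit, at 334 ± 15.6 in Daxx-deleted and 328 ± 35.5 in wild-type pancreas, Lpl, lipoprotein lipase, at 289.7 ± 30.2 in Daxx-deleted and 289 ± 63.1 in wild-type pancreas, and Agpat3, an acyltransferase, at 273 ± 32.5 in Daxx-deleted and 243 ± 36.9 in wild-type pancreas. At an unadjusted p under 0.05 limma had 1 of the 33 lower in Daxx-deleted pancreas and none higher, against 1.57% and 1.32% of all tested genes. This was Hacd1, a dehydratase of fatty acid elongation, at 29.3 ± 9.24 in Daxx-deleted and 41.9 ± 7.70 in wild-type pancreas, with overlapping groups (exact permutation p = 0.114). Pparg, a nuclear receptor of fat cells that was below the minimum mean, had 12.4, 13.3, 12.5 and 11.5 in Daxx-deleted replicates 1 to 4, against 7.93, 6.52, 2.92 and 3.54 in wild-type replicates 1 to 4. These are 11 to 16 reads per Daxx-deleted library and 3 to 9 per wild-type library. Its groups did not overlap (exact permutation p = 0.0286). It was 1 of the 35 listed, against 0.925% of all listed genes higher without overlap. Hacd1 and Pparg, too, were chosen after their values were seen.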

How the data were processed

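Strand-specific total RNA libraries of whole pancreas were made with a TruSeq kit, per the labels' protocols, and STAR 2.6.0b, DESeq2 and GRCm38 are named in the submitters' processing notes. Which counter and gene filter were used is not stated. The deposited table holds a signal per gene and library, gene read counts that the authors divided by 1 size factor per library. Whole reads were recovered for 100% of values within a tolerance of 0.001, with totals over the listed genes of 7705789 to 10517508. Genes with a mean of at least 10 entered. log2(value + 1) was fitted with limma 3.58.1 (R 4.3.3, trend, genotype as the only term) over all 10468 genes, with two-sided p-values under Benjamini-Hochberg adjustment. The exact permutation test used 70 relabellings and cannot give a p under 0.0286. Alternatives were other pseudocounts, scalings, minimums and variance settings, covariates, edgeR 4.0.16, DESeq2 1.42.0 and each library left out. The test was run on simulated counts, drawn for each gene on its own. Beyond the size factor these held no library differences shared by groups of genes, so the check does not cover such differences. The exon length of a gene is the union of all its exons in GENCODE M21, which can exceed the length of the transcript made. The order of levels per kilobase depends on it. Promoters are from RefSeq. Members and lists were chosen with earlier results of these data known. Genes named by rule are all members, Daxx and the 4 genes with the highest mean in each further pathway list, of which 1 is not reported here. Mylip, Nr1h3, Soat1, Hacd1, Pparg and the single adipocyte markers were named after their values were seen. Values in every library are given for the 2 genes with the smallest p and the highest mean in each role, and for genes chosen after their values were seen (Fdps, Idi1, Thrsp, Scd1, Me1, Acly, Mylip, Nr1h3, Pparg, Adipoq). Libraries of 1 genotype differed by more than counting noise, with a chi-square of 6.81 to 25.3 per degree of freedom, and all 8 were kept. The design text gives 4 mice per genotype.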

Additional observations from a re-analysis of the deposited data

Results flagged for a closer look

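In 7 of 94 groups of 4 libraries, over 47 genes, 1 library lay far from the other 3 of its genotype by Dixon's test, where chance gives about 1 in 20, or 4.7. Acacb was at 709.7 in Daxx-deleted replicate 2, against 921 to 927 in the other Daxx-deleted libraries, and at 1011 in wild-type replicate 2, against 721 to 732 in the other wild-type libraries. Acaca was at 190.3 in wild-type replicate 1, against 113 to 124 in the other 3. Hsd17b7 was at 23.1 in Daxx-deleted replicate 4, against 15.8 to 16.7, and at 10.7 in wild-type replicate 3, against 19.5 to 21.1. Mvk was at 44.8 in Daxx-deleted replicate 3, against 30.97 to 33.3. Lss was at 127 in wild-type replicate 3, against 108 to 111.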

How the results depend on the processing

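No member was called under any of the 13 alternative settings or with any of the 8 libraries left out. Over all tested genes the count of calls was 1, never a member, with equal library totals, robust variance moderation, the Y-linked covariate, the adipocyte marker covariate or DESeq2, 1 without Daxx-deleted replicate 2, and 0 without any other library (0 to 1). Equal library totals moved the median of all tested genes to 0.11. Relative to it the medians were 0.07 for cholesterol and 0.16 for fatty acid synthesis. With a minimum mean of 50 the cholesterol median was -0.07 over fewer genes. Of 454 member values in these settings 449 kept their sign. The exceptions were Hmgcs1 (0.018), Lss (0.053) and Scap (0.055) with equal library totals, which lie below the shifted median, and Thrsp with edgeR (0.088) and DESeq2 (0.023), and the cause of that last change was not tested. With a library left out, 18 members changed sign at least once. Their log2 fold changes then ran from -0.030 to 0.39 for Acaca, -0.082 to 0.33 for Acat2, -0.10 to 0.27 for Acss2, -0.011 to 0.13 for Dhcr7, -0.058 to 0.14 for Elovl5, -0.042 to 0.17 for Fads1, -0.021 to 0.29 for Fads2, -0.067 to 0.41 for Fasn and -0.079 to 0.17 for Fdft1. They ran from -0.24 to 0.068 for Hmgcs1, -0.16 to 0.14 for Hsd17b7, -0.027 to 0.20 for Insig1, -0.18 to 0.070 for Lss, -0.097 to 0.21 for Nsdhl, -0.052 to 0.23 for Pmvk, -0.13 to 0.0095 for Scap, -0.31 to 0.52 for Scd1 and -0.37 to 0.12 for Tm7sf2. No paired analysis was possible because the labels give no replicate numbers shared between genotypes. Genes with few reads, such as Fdps and Idi1, allow no firm statement at this depth.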

Other observations

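Marker lists of other cells gave these summed normalized counts. Hepatocyte markers, 6 of 12 listed, had 255 to 389.5 in Daxx-deleted and 341 to 453 in wild-type libraries, mostly from Ttr, which islets also express. Islet markers, 10 of 10, had 1757 to 7692 in Daxx-deleted and 2207 to 8022 in wild-type libraries. Ductal markers, 10 of 10, had 2773 to 3103 in Daxx-deleted and 2657 to 3273 in wild-type libraries. Myeloid markers, 10 of 11, had 352 to 785 in Daxx-deleted and 440.0 to 656 in wild-type libraries, and lymphocyte markers, 3 of 11, had 31.5 to 153 in Daxx-deleted and 24.8 to 69.6 in wild-type libraries. Fibroblast and stellate markers, 10 of 10, had 3413 to 5602 in Daxx-deleted and 3174 to 4941 in wild-type libraries, and endothelial markers, 8 of 8, had 658 to 861 in Daxx-deleted and 659 to 869 in wild-type libraries. In every list the ranges of the genotypes overlapped.

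Per kilobase of exon, Srebf1 was 1.73 to 2.50 times Srebf2 in Daxx-deleted and 1.92 to 3.21 times in wild-type libraries. Fads1 was 2.27 to 2.75 times Fads2 in Daxx-deleted and 1.71 to 3.11 times in wild-type libraries, and Elovl5 was 5.48 to 10.6 times Elovl6 in Daxx-deleted and 7.68 to 11.7 times in wild-type libraries. Fasn was 3.46 to 6.61 times Hmgcs1 in Daxx-deleted and 2.28 to 4.77 times in wild-type libraries. Each pair of ranges overlapped.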
